A study of Homo sapiens with 6 samples.

Results

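Zinc finger transcription factors were followed in HMC3, a human microglial cell line, after exposure to CM carrying the complement protease C1s. The members were all genes of the deposited count table whose symbol begins with ZNF and a digit, ZBTB, ZSCAN, ZKSCAN, or ZFP and a digit. There were 146 of them among 5117 genes in the table. The tested cultures were 3 libraries of HMC3 cells given CM with C1s, called C1s-CM below. The 3 control libraries, titled FLAG, came from HMC3 cells given CM without C1s and are called control CM. The labels give genotype WT, brain as tissue and human microglia as cell type for all 6 libraries, and all cells were grown in MEM with serum, penicillin and streptomycin. The labels do not spell out CM, and they give neither an exposure time nor a dose. Separate cultures are not stated for the 3 libraries of a group, so each p-value refers to library-to-library spread that could be purely technical. The labels' study title places the comparison in mesenchymal glioblastoma, where complement C1s and the metabolism of microglia are the subject.

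Most proteins of this class grip DNA with C2H2 zinc fingers, small loops in which a pair of cysteines and a pair of histidines hold a zinc ion, strung together by short linkers, of which TGEKP is the classical form. A large share of human members carry a KRAB box, which recruits the corepressor TRIM28 and, through it, the histone methyltransferase SETDB1, and which is best known for silencing transposable elements. ZBTB proteins carry a BTB domain that makes dimers and binds corepressors or the ubiquitin ligase scaffold CUL3, whereas ZSCAN and ZKSCAN proteins carry a SCAN dimerization domain. Many KRAB genes lie in tandem clusters, above all on chromosome 19.

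The table held part of each library. Its columns summed to between 14195082 and 14961744 counts in C1s-CM and between 12730766 and 13863120 in control CM. Every gene with a row had an adjusted p of at most 0.05 in the authors' deposited table, so genes that did not differ in the authors' test were not analysed here. The authors' adjusted p-values imply that 12585 genes had been adjusted over, of which 40.7% had a row. Of 11 microglia markers none had a row, and of 7 fibroblast or pericyte markers only PDGFRB and COL1A1 did. COL1A1 had 53231, 54027 and 51107 counts in C1s-CM, against 49853, 52258 and 54676 in control CM. A marker without a row was not analysed here, so the microglial label could not be checked from these lists. MALAT1, the single transcript with a row among 7 RNA quality and stress markers, had 234, 319 and 258 counts in C1s-CM and 352, 378 and 455 in control CM, a log2 fold change of -0.53. The part of RNA quality in the results below was not tested.

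The zinc finger members moved apart into a larger lower group and a smaller higher group. With edgeR's quasi-likelihood test on TMM-scaled counts and an adjusted p of at most 0.05, 41 members were higher in C1s-CM and 105 were lower. Over all genes tested, 99.4% passed in either direction, 50.9% as higher and 48.5% as lower, because the table holds only genes that had passed the authors' test. In bulk libraries such as these, fewer cells of a kind and less RNA per cell cannot be told apart. That every member passed is no result about zinc fingers. What the table can show is the direction and, within a limit, the size. Genes with few counts enter the table mainly with larger changes, and the part of this in the sizes below was not tested. Of the members 28.1% were higher and 71.9% lower. The median log2 fold change, C1s-CM over control CM, was -0.50 over the members and 0.08 over all genes tested. The groups did not overlap in normalised counts for 145 members, against 97.2% of all genes tested. The exception was ZNF142, with 435, 545 and 501 counts in C1s-CM and 424, 440 and 438 in control CM.

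With total counts as the only scaling, which moved the median of all genes by -0.13, 41 members were still above 0, but 20 were called higher and 105 lower, where 26.1% of all genes were called higher and 49.2% lower.

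The changes were mostly small. Members called higher had a median log2 fold change of 0.26 and ranged from 0.13 to 0.55, while members called lower had a median of -0.60 and ranged from -1.01 to -0.28. A fall of at least 0.5 on the log2 scale was seen in 74 members, or 50.7%, against 20.3% of all genes tested. A rise of that size was seen in 1 member, ZNF688. The median level was 16.7 CPM (counts scaled to TMM-adjusted library size) over the members and 64.6 CPM over the other genes. These shares are therefore not read as a trait of the members. Each library gave the same picture. On a log2 scale of CPM and relative to the control mean, the median of the higher members was 0.27, 0.23 and 0.26 in the C1s-CM libraries. It lay between -0.01 and 0.02 in the control CM libraries. The median of the lower members was -0.56, -0.54 and -0.56 in C1s-CM and lay between -0.02 and 0.02 in control CM. The 6 libraries therefore fell into separate groups for both sets of members, as the choice of members by direction requires.

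**Figure D1:**
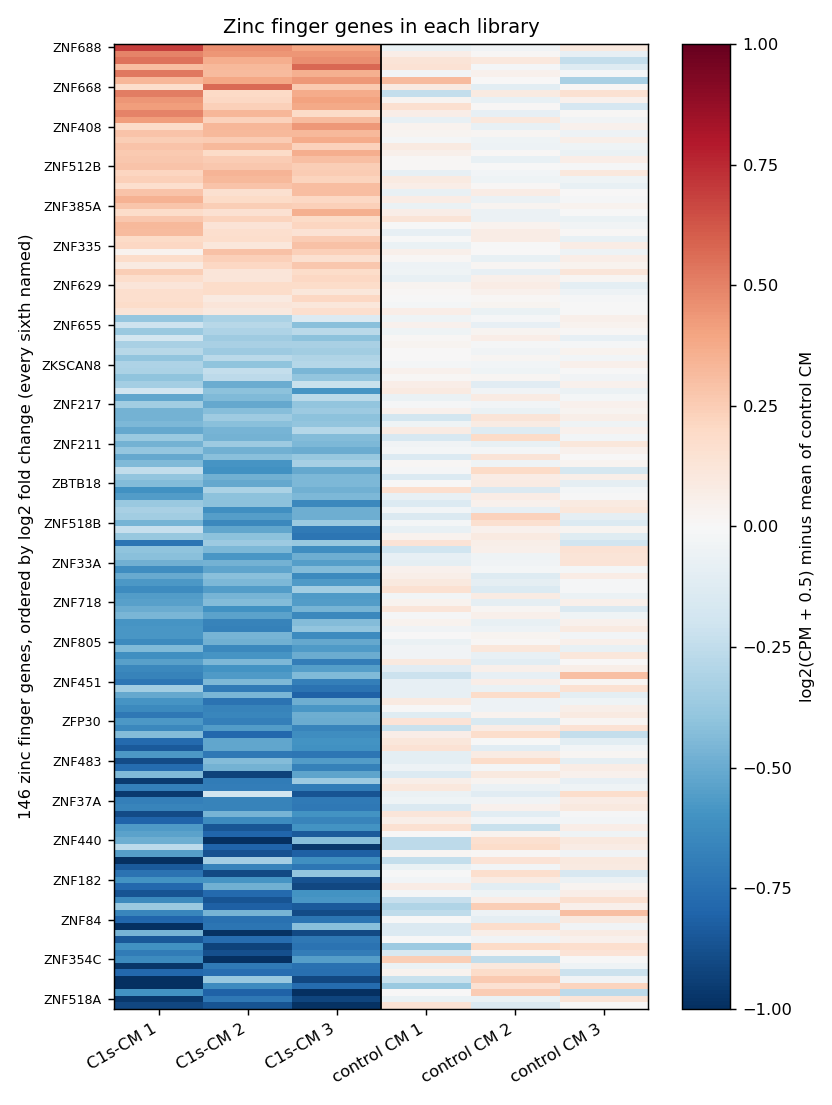
Colour shows log2(CPM + 0.5) minus the control CM mean for all 146 zinc finger members (down the page, by log2 fold change, every sixth named) in the 3 C1s-CM and then the 3 control CM libraries (across). The members called higher and the members called lower form a red block and a blue block in all 3 C1s-CM libraries, and the control CM libraries stay pale.

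Fingers of members that rose and of members that fell carry the same kind of protein fold in different base composition. They are shown because, of the sequence features computed here, transcript composition followed the direction most closely. The stretches below are each 78 bases of GRCh38, read 5′ to 3′ on the coding strand from the first cysteine codon of a finger through its TGEKP linker, and the 15 bases of the linker are in capitals. ZNF324B (chr19:58456055-58456132, + strand) and ZNF213 (chr16:3140922-3140999, + strand) were higher in C1s-CM. ZNF678 (chr1:227654545-227654622, + strand) and ZNF25 (chr10:37952811-37952888, - strand) were lower.

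ZNF324B: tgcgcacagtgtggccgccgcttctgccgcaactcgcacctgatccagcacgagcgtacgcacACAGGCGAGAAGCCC
ZNF213: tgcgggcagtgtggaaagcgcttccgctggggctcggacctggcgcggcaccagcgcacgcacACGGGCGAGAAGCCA
ZNF678: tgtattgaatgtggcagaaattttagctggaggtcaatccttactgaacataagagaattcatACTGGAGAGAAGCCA
ZNF25: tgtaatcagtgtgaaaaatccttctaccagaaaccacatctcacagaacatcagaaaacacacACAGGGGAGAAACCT

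The GC content of these stretches was 66.7% in ZNF324B, 71.8% in ZNF213, 38.5% in ZNF678 and 41.0% in ZNF25. All are coding exon sequence. Counted over every linker of the members, 19 of 41 coding members that were higher had at least 1 TGEKP linker and held 50 linkers in all. Of 103 coding members that were lower, 72 had a linker, and they held 426. The codons behind these identical residues differed in composition. The last codon positions of the linkers were 77.6% G or C in the higher members and 36.1% in the lower members. Among the 4876 other protein-coding genes of the table, 15 had such a linker.

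Over whole transcripts the division was close to complete among the members with a row. Zinc finger genes with changes near 0 would mostly have no row. The part of this selection in the division and in the correlation below was not tested. The representative GENCODE 29 transcripts of the higher members had 46.1 to 71.1% GC with a median of 62.5%, and those of the lower members had 32.5 to 49.8% with a median of 40.7%. All 40 members with at least 50% GC were higher in C1s-CM. Of 106 members under 50%, 105 were lower and 1, ZNF749, was higher. The representative transcript of ZNF749 has no annotated 3′ untranslated region. Across the 146 members, the rank correlation of log2 fold change with transcript GC content (Spearman's rho) was 0.81, a description over genes that share the same 6 libraries. The same measure was -0.43 for transcript length.

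The other genes of the table divided in a similar way. Between 35 and 40% GC, the 38 members had a median log2 fold change of -0.68, and 99.4% of the 1040 other genes were lower with a median of -0.53. Between 40 and 45% GC, the 52 members had a median of -0.54 and the 1010 others a median of -0.39. Between 60 and 65% GC, the 22 members and the 900 others both had a median of 0.26. The widest mixture was between 45 and 50% GC, where 1 of 10 members was higher and 32.7% of 339 other genes were. In each of the 4 classes under 50% GC the median of the members lay below that of the other genes, and these members also had longer transcripts than the others in each class, with medians of 5135.5 and 4236.5 bases between 40 and 45% GC.

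**Figure D2:**
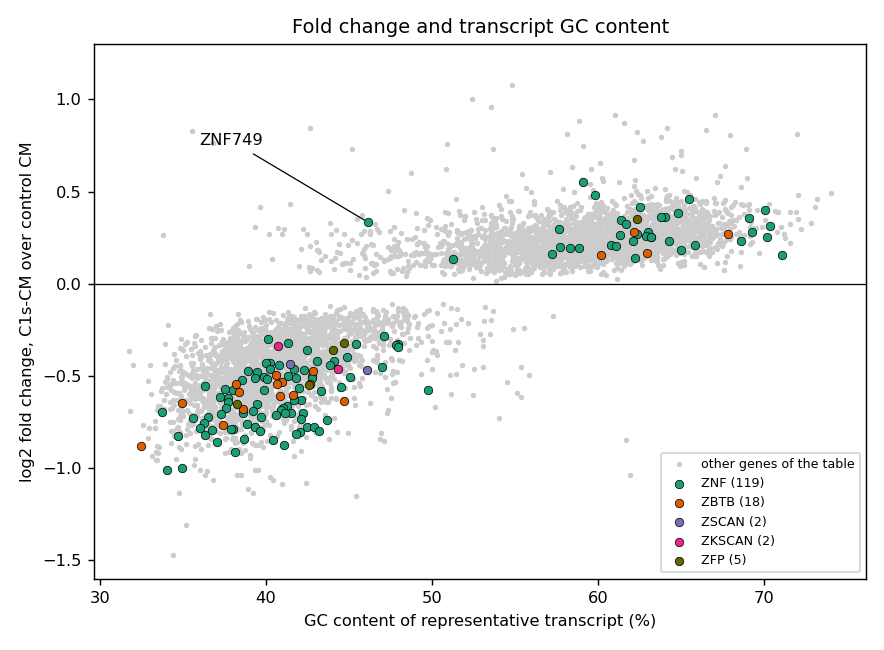
Log2 fold change, C1s-CM over control CM, against the GC content (%) of the representative transcript for the zinc finger members and for the other genes of the table. The 40 members with at least 50% GC lie above 0, and of those under 50% GC ZNF749 alone lies above 0.

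Coding sequence and 3′ untranslated region (3′ UTR) both followed this division. The median coding GC content was 63.8% in higher members and 41.4% in lower members. The median 3′ UTR GC content was 57.1% in higher members and 36.3% in lower members. Median 3′ UTR length was 594 bases in higher members and 2855 in lower members. Where the coding part and the 3′ UTR differed, the lower members showed it in 7 genes: ZFP91, ZNF367, ZKSCAN1, ZSCAN29, ZBTB18, ZBTB34 and ZNF550 had coding sequences of at least 50% GC and 3′ UTRs of 31.5 to 42.2%. ZNF367 was the widest case, with 63.1% GC in its coding sequence and 31.5% in its 3′ UTR. It had 468, 455 and 446 counts in C1s-CM and 524, 720 and 636 in control CM, a log2 fold change of -0.44 ± 0.08 (SE). Conversely, 5 higher members had a 3′ UTR under 50% GC with a coding sequence of at least 57.7%, namely ZNF688, ZBTB17, ZNF428, ZNF142 and ZNF185. Both sets were picked out after their values had been seen.

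Promoters did not divide the members as transcripts did. RefSeq windows of GRCh38.p14, running from 250 bases before to 50 after each annotated start, were matched for 129 of the 146 members. Their median GC content was 66.3% in the 35 matched higher members and 62.5% in the 94 matched lower members, against 66.0% in 4189 matched genes of the table. The median number of CG dinucleotides was 23 in higher members and 24 in lower members. The motif searched was CG, which reads the same on both strands, and 95.8% of all 27305 promoter windows hold at least 1. The windows of the members with the largest rise and the largest fall are printed with each CG in capitals. That of ZNF688 (chr16:30571665-30571964, - strand) has 19 and that of ZNF678 (chr1:227563306-227563605, + strand) has 9.

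ZNF688: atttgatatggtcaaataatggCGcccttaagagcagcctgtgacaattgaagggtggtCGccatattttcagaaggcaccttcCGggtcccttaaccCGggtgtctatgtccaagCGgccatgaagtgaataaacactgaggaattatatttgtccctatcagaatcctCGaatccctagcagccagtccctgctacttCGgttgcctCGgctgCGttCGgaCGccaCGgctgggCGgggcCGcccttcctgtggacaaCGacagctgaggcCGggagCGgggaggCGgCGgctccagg
ZNF678: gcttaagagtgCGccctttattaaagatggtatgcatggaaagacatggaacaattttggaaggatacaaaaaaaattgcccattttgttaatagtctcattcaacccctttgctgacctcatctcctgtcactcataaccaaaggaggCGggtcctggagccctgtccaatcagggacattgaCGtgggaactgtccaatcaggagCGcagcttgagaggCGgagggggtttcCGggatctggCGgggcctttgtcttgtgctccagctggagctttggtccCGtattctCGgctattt

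Whether these annotated starts are the ones used in HMC3 cells was not analysed here.

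Members that matched a KRAB pattern were mostly among the lower genes. A strict pattern for the KRAB A box (tyrosine, then R, K or Q, any residue, V, M, any residue, E) matched 35 of the 144 protein-coding members, and 2 of these were higher and 33 lower, with a median log2 fold change of -0.69. Of the 109 without a match, 39 were higher and 70 lower, with a median of -0.45. A protein without a match can still hold a KRAB box that the pattern misses. The KRAB-pattern members were also lower in expression, with a median of 8.06 CPM against 23.7 CPM in members without a match. Of the 35, 18 lie on chromosome 19. Genes with few counts enter the table mainly with larger changes, and the part of this in the medians above was not tested. The median transcript GC content of KRAB-pattern members was 41.8%, against 42.7% without a match. These medians hide the spread, as the highest GC content was 59.8% with the pattern and 71.1% without. In both sets every member with at least 50% GC was higher, and under 50% only ZNF749 was. The parts of the pattern and of GC content were therefore not told apart. Of 266 annotated genes with the pattern 35 had a row, or 13.2%, against 32.1% of the 340 without it. Of the genes the authors had adjusted over 40.7% had a row, but annotated genes need not have been among them. A row also depends on passing the authors' test, and the part of expression level was not tested. The shares are therefore not read as a trait of the pattern.

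ZNF25 had the largest fall among KRAB-pattern members. It had 49, 43 and 34 counts in C1s-CM, against 75, 97 and 68 in control CM, a log2 fold change of -0.92 ± 0.19 (SE, adjusted p = 8.81e-05 in edgeR). All 3 C1s-CM libraries were lower than every control library, as the naming rule required of the largest falls. ZNF566 had 47, 50 and 48 counts in C1s-CM and 85, 102 and 78 in control CM, and ZNF354C had 51, 36 and 54 counts in C1s-CM and 96, 71 and 88 in control CM. Their log2 fold changes were -0.86 and -0.84. ZNF12 and ZNF699 were measured more deeply. ZNF12 averaged 7.66 ± 0.38 CPM in C1s-CM and 13.4 ± 0.37 CPM in control CM (SD, n = 3 each), with a log2 fold change of -0.81 ± 0.11 (SE). ZNF699 had 178, 127 and 129 counts in C1s-CM, against 217, 267 and 281 in control CM, a change of -0.80 ± 0.12.

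A pair of KRAB-pattern members with a known target class moved less, and they were chosen after their values were seen. ZNF93, which represses LINE-1 retrotransposons in primates, had 100, 112 and 110 counts in C1s-CM and 127, 165 and 156 in control CM, a log2 fold change of -0.46 ± 0.12 (SE). ZNF445, which helps to keep genomic imprints, had 340, 373 and 405 counts in C1s-CM and 420, 459 and 495 in control CM, a change of -0.28 ± 0.08. The KRAB-pattern members that rose were ZNF688 and ZNF324B. ZNF688 had 153, 136 and 123 counts in C1s-CM, against 85, 93 and 106 in control CM, a log2 fold change of 0.55 ± 0.13 (SE, adjusted p = 0.000341 in edgeR). ZNF324B had 172, 173 and 165 counts in C1s-CM, against 122, 125 and 121 in control CM, a change of 0.48 ± 0.11. Neither gene overlapped between the groups, as the naming rule required, and their transcripts held 59.1% and 59.8% GC. ZNF324B shares 10.8% of its transcript's 100-base words with other genes, chiefly ZNF324, so part of its count is uncertain.

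Among ZNF members without a pattern match, ZNF678 had the largest fall of all members, with 48, 52 and 45 counts in C1s-CM, against 103, 89 and 103 in control CM. Its mean was 3.49 ± 0.17 CPM in C1s-CM and 7.05 ± 0.75 CPM in control CM (SD, n = 3 each), a log2 fold change of -1.01 ± 0.16 (SE, adjusted p = 3.1e-06 in edgeR). ZNF518A, a protein with few fingers on a long chain, had 28, 36 and 29 counts in C1s-CM and 56, 60 and 72 in control CM, a change of -0.999 ± 0.19. Both sets of libraries were fully separate for both genes, as the naming rule required. ZNF570 and ZNF121 fell by 0.87 and 0.85 on the log2 scale. Among rises, ZNF213 had 336, 309 and 318 counts in C1s-CM, against 243, 256 and 206 in control CM, a change of 0.46 ± 0.10. ZNF777 had 300, 316 and 361 counts in C1s-CM, against 258, 245 and 235 in control CM, a change of 0.42. ZNF784, ZNF668 and ZNF771 rose by 0.38, 0.36 and 0.36, and none of the 3 was called under total-count scaling. ZNF668 also lost its call without C1s-CM replicate 2 (0.23, adjusted p = 0.0799 in edgeR), and ZNF784 without control CM replicate 3 (0.23, adjusted p = 0.0684). ZNF668 overlaps an antisense transcript over 51.8% of its exon length, and whether the counting used strand is not given in the sources used here.

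The 3 members with the highest CPM were all called higher. ZNF512B had 2703, 2791 and 2616 counts in C1s-CM, against 2162, 2284 and 2348 in control CM, a log2 fold change of 0.27 ± 0.03 (SE, adjusted p = 7.49e-08 in edgeR). ZNF219 averaged 142 ± 11.3 CPM in C1s-CM and 107 ± 2.89 CPM in control CM (SD, n = 3 each), with 2109, 1902 and 1863 counts in C1s-CM and 1389, 1561 and 1543 in control CM. Its change was 0.40 ± 0.05. ZNF185, a LIM-domain protein of the actin cytoskeleton that carries no C2H2 match, had 1629, 1668 and 1670 counts in C1s-CM, against 1505, 1476 and 1593 in control CM, a change of 0.13 ± 0.04. Per kilobase of transcript, ZNF581 stood highest with 83.2 CPM per kb, followed by ZNF580 with 53.5 CPM per kb. The median level was 15.3 CPM per kb in higher members and 2.19 CPM per kb in lower members. The lower members therefore rest on fewer counts, with a median of 982 over the 6 libraries against 3925 for the higher members, and the largest SE of a log2 fold change was 0.22 in lower members and 0.13 in higher members.

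**Figure D3:**
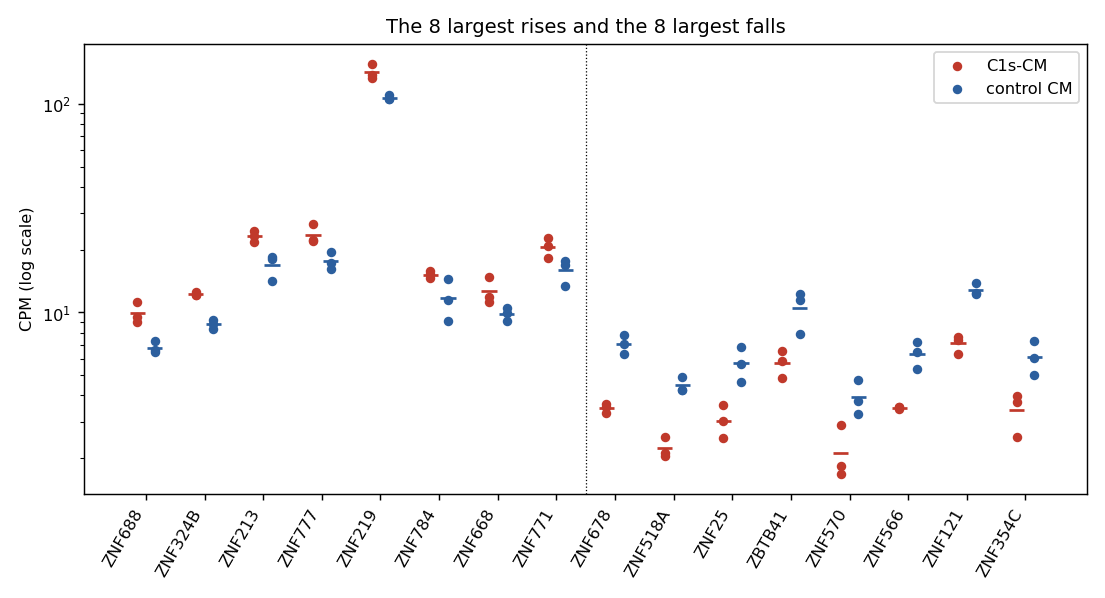
CPM on a log axis in each library (points) with the group mean (bar) for the 8 members with the largest rises and the 8 with the largest falls, C1s-CM left of control CM. ZNF688 and ZNF324B are higher and ZNF678 and ZNF25 lower in every C1s-CM library than in any control library. Groups that do not overlap were a condition for the choice of these genes, and 97.2% of all genes tested meet it.

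Several well-studied members outside the naming rule were read after their values had been seen. ZNF148 and ZNF281, related factors that bind GC-rich promoter elements, fell together. ZNF148 had 420, 367 and 338 counts in C1s-CM and 594, 650 and 637 in control CM, a log2 fold change of -0.73, and ZNF281 had 319, 327 and 248 counts in C1s-CM and 413, 460 and 410 in control CM, a change of -0.51. The paralogs ZNF143, an activator of small nuclear RNA and cell cycle promoters, and ZNF76 went opposite ways. ZNF143 had 193, 180 and 209 counts in C1s-CM and 249, 235 and 271 in control CM, a change of -0.36 ± 0.10 (SE). ZNF76 had 565, 639 and 638 counts in C1s-CM and 494, 554 and 580 in control CM, a change of 0.19 ± 0.06. Their transcripts have 42.5% GC in ZNF143 and 58.9% in ZNF76. ZNF217, a factor of corepressor complexes that is often amplified in breast cancer, had 731, 679 and 703 counts in C1s-CM and 889, 946 and 1022 in control CM, a change of -0.42.

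Not every symbol stands for a DNA-binding factor. ZNF598 is an E3 ubiquitin ligase that marks collided ribosomes, and its log2 fold change was 0.18. ZNF451 is a SUMO ligase. Its representative transcript codes for 559 residues and gave no match to the finger pattern, and its other transcripts were not scanned. ZNF451 had 433, 550 and 445 counts in C1s-CM and 655, 780 and 779 in control CM, and it fell by 0.62 on the log2 scale. The table also held the pseudogenes ZNF37BP and ZNF204P, which fell by 0.58 and 0.67. ZNF37A, the coding relative of ZNF37BP, fell by 0.70.

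Of 18 ZBTB genes with a row, 14 were lower and 4, or 22.2%, were higher, with a median log2 fold change of -0.55. The share called higher was 28.1% over all members and 50.9% over all genes tested. ZBTB44 had the smallest p of all members, with 678, 642 and 610 counts in C1s-CM, against 912, 1107 and 1099 in control CM, a change of -0.68 ± 0.06 (SE, adjusted p = 4.17e-10 in edgeR). ZBTB33, known as Kaiso, binds methylated DNA, and it had 164, 194 and 178 counts in C1s-CM and 276, 304 and 341 in control CM. ZBTB38, which also binds methylated CpG sites, had 511, 550 and 543 counts in C1s-CM and 716, 861 and 893 in control CM. The log2 fold change was -0.77 for ZBTB33 and -0.61 for ZBTB38. Neither gene overlapped between groups, which held for 97.2% of all genes tested.

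ZBTB41 had 66, 93 and 80 counts in C1s-CM and 104, 163 and 178 in control CM, a change of -0.88 with the lowest GC content of all members, 32.5%. ZBTB11, a factor tied to expression of mitochondrial protein genes, had 296, 329 and 336 counts in C1s-CM and 455, 468 and 482 in control CM, a change of -0.54. It overlaps an antisense transcript. The 4 ZBTB genes that rose were ZBTB17, ZBTB42, ZBTB7B and ZBTB22. ZBTB17, known as MIZ1 and a partner of MYC, had 757, 813 and 729 counts in C1s-CM, against 640, 620 and 645 in control CM, a change of 0.28 ± 0.06. ZBTB7B, which directs CD4 T cell development, ZBTB42 and ZBTB22 rose by 0.17, 0.27 and 0.16.

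SCAN-type and ZFP members were few. Both ZSCAN genes with a row, ZSCAN12 and ZSCAN29, fell, with log2 fold changes of -0.44 and -0.47. Their groups did not overlap, which held for 97.2% of all genes tested. Both ZKSCAN genes fell too. ZKSCAN1 had 569, 558 and 527 counts in C1s-CM and 711, 761 and 825 in control CM, a change of -0.46, and ZKSCAN8 had 613, 599 and 623 counts in C1s-CM and 725, 772 and 841 in control CM, a change of -0.34. Of 5 ZFP genes 4 fell. They were ZFP91, a ubiquitin ligase of the NF-kappaB pathway, at -0.32, ZFP62 at -0.55, ZFP90 at -0.36 and ZFP30 at -0.65. ZFP41 rose by 0.35, but 68.9% of its 100-base words are shared with other genes, as are 31.0% of those of ZFP91. The families differ in how much of them the table holds: 18.4% of annotated ZNF symbols had a row, 32.7% of ZBTB symbols and 8.33% of ZSCAN symbols. These shares count annotated genes whether or not they were measured, and the differences between families were not tested.

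Members in the same chromosomal cluster went the same way nearly everywhere. In the GENCODE 29 annotation on GRCh38, members of the symbol families were joined while neighbours lay within 250 kb, and groups of at least 5 genes counted as clusters. There were 27 clusters, of which 23 held a member with a row and 16 held at least 2. In 11 of these 16 all members with a row were lower, in 4 all were higher, and in 1 they were mixed. Several of the 16 held only 2 members with a row, and 71.9% of all members were lower. How much agreement this alone would give was not tested. The members in the 11 uniformly lower clusters numbered 36, and those in the 4 uniformly higher clusters 14. In all, 18 members in clusters were higher and 47 lower, against 23 and 58 outside clusters, so the share of higher members was 27.7% inside and 28.4% outside.

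The lower clusters included long arrays of chromosome 19. At chr19:51571298-53580269, 8 of 46 annotated genes had a row and all 8 were lower, with a median log2 fold change of -0.69. They included ZNF614, with 50, 66 and 45 counts in C1s-CM and 93, 87 and 99 in control CM, and ZNF347, with 133, 130 and 152 counts in C1s-CM and 191, 202 and 231 in control CM. At chr19:36182060-37817300, ZNF146, ZNF566, ZNF260, ZNF570 and ZFP30 were lower with a median of -0.82. ZNF146, built almost wholly of fingers, was the most abundant of them, with 418, 434 and 411 counts in C1s-CM and 703, 668 and 698 in control CM, a change of -0.70 ± 0.06 (SE, adjusted p = 1.34e-09 in edgeR). A cluster on chromosome 10, chr10:37776526-38150293, held ZNF248, ZNF25, ZNF33A and ZNF37A, all lower, with a median of -0.61.

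The uniformly higher clusters with most members in the table lay at chr16:30378106-30787202 and chr19:55476332-55645622. The other 2 held ZNF787 and ZNF444 on chromosome 19 and ZNF282 and ZNF777 on chromosome 7. In the cluster on chromosome 16, ZNF48, ZNF771, ZNF768, ZNF688 and ZNF629 were all higher with a median of 0.35. ZNF48 had 723, 674 and 584 counts in C1s-CM and 518, 500 and 553 in control CM. The cluster at the second locus held ZNF579, ZNF865, ZNF784, ZNF580 and ZNF581, all higher with a median of 0.23. Of the genes without a zinc finger symbol inside these intervals, 4 of 4 were higher on chromosome 16 and 3 of 3 on chromosome 19. Their median GC content was 58.2% and 67.6%. In lower clusters such genes could go the other way. The 1 with a row at chr19:51571298-53580269 was higher, with 53.7% GC. All 3 at chr19:11483427-12640098 were higher, with a median of 59.95% GC, where both members were lower. Among all genes of the table other than the members, 90.2% were higher between 50 and 55% GC, and 99.3% between 55 and 60%. A part of location apart from GC content was not tested. With the offsets for GC content and length described below, the members' median was 0.08 in the chromosome 16 cluster and -0.07 in the other, and none of these members was called. The members' median GC content was 61.4% in the chromosome 16 cluster and 65.9% in the second, against 41.1% at chr19:51571298-53580269 and 38.3% at chr19:36182060-37817300.

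The mixed cluster was chr19:57191500-58538911, where 8 of 49 annotated genes had a row. ZNF749 and ZNF324B were higher there, and ZNF805, ZNF550, ZNF530, ZNF211, ZNF586 and ZNF587 were lower. ZNF749 had 208, 190 and 193 counts in C1s-CM, against 141, 172 and 160 in control CM, a log2 fold change of 0.34 ± 0.10 (SE, adjusted p = 0.0041 in edgeR). ZNF805 had 74, 87 and 81 counts in C1s-CM, against 109, 124 and 132 in control CM, a change of -0.58 ± 0.13. Under total-count scaling ZNF749 stood at 0.21 and was not called (adjusted p = 0.0756). Neither gene overlapped between groups, which held for 97.2% of all genes tested. Their transcripts have 46.1% GC in ZNF749 and 49.8% in ZNF805.

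**Figure D4:**
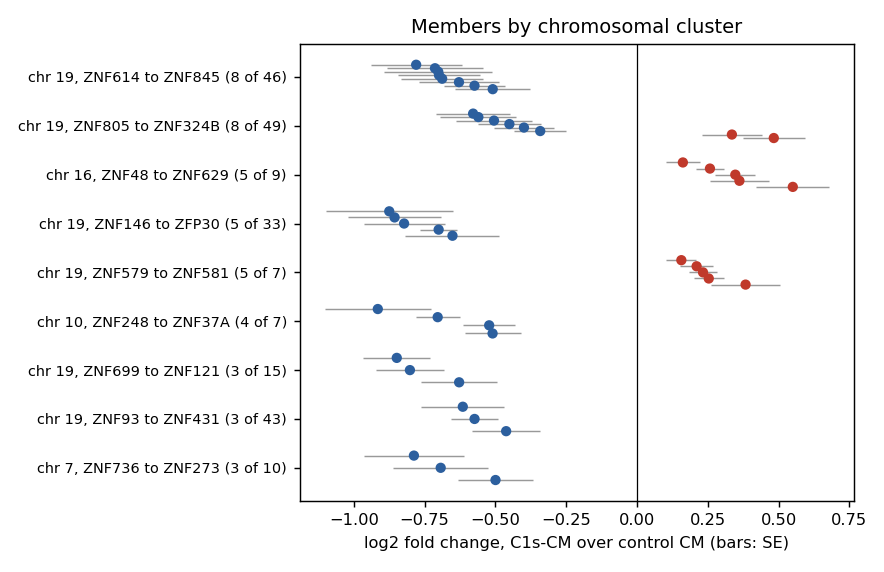
Log2 fold change, C1s-CM over control CM, with its SE (bars) for each member in the clusters with at least 3 members in the table, each cluster named by its outermost genes and with members counted of those annotated. The clusters from ZNF48 to ZNF629 and from ZNF579 to ZNF581 lie wholly above 0, and the cluster from ZNF805 to ZNF324B holds members on both sides.

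When offsets for transcript GC content and length were put into the same model for each library, most calls were lost. Then 15 of the 146 members, or 10.3%, had an adjusted p of at most 0.05, 4 of them higher and 11 lower. Over all 5112 genes in that fit, 25.7% passed, 13.1% as higher and 12.6% as lower. At an unadjusted p of at most 0.05, 7 of the 41 higher members and 23 of the 105 lower members passed in either direction. The share of all genes at that unadjusted threshold is not given here, so these counts cannot be set against it. The median log2 fold change of the members became -0.08, against -0.007 for all genes, and 117 members, or 80.1%, lay below 0, against 52.8% of all genes. Among the 41 members called higher without offsets 24 turned to a negative estimate, and among the 105 called lower 12 turned to a positive one. The offsets were fitted over all genes and take out change that runs along GC content or length there, whatever its source. Among the members a rank correlation of 0.33 with transcript GC content remained with offsets (Spearman's rho). The values with offsets are therefore not free of GC content.

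Members that kept their direction and their call are few. ZNF749 was higher with a log2 fold change of 0.49 ± 0.10 with offsets (SE, adjusted p = 0.000875 in edgeR), and ZNF219 was higher at 0.11 ± 0.04 (adjusted p = 0.0289), a call that was lost when the replicate block was added to the offsets (adjusted p = 0.0542). Lower with offsets were ZNF805 at -0.61 ± 0.13, ZNF699 at -0.53 ± 0.12, ZNF12 at -0.37 ± 0.11, ZNF473 at -0.27 ± 0.08 and ZNF664 at -0.25 ± 0.04. ZNF664 had the smallest adjusted p of these, 9.07e-05, with 997, 1042 and 991 counts in C1s-CM and 1231, 1278 and 1321 in control CM. ZNF473, which takes part in histone messenger RNA 3′ end processing, had 229, 262 and 244 counts in C1s-CM and 295, 319 and 318 in control CM. The other 6 were ZNF211, ZNF146, ZNF37A, ZNF121, ZBTB10 and ZNF586, between -0.36 and -0.20. The representative transcripts of ZNF749 and ZNF805 have no annotated 3′ UTR, and that of ZNF699 has 165 bases. The median over the members was 1972.5 bases. The offsets of these 3 genes rest on the GC content and length of those transcripts. Taking the longest transcript left that of ZNF749 at 2587 bases.

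ZKSCAN8 and ZNF655 changed direction and were called higher with offsets. The log2 fold change of ZKSCAN8 was 0.16 with offsets (adjusted p = 0.0332 in edgeR) and -0.34 without. That of ZNF655 was 0.18 with offsets (adjusted p = 0.0443) and -0.30 without, over 523, 522 and 452 counts in C1s-CM and 604, 593 and 665 in control CM. GC content and length entered the model together, so their parts in this change of direction cannot be told apart. With the replicate block added to the offsets, the adjusted p was 0.0471 for ZKSCAN8 and 0.0601 for ZNF655, and with the longest transcript it was 0.0501 for ZKSCAN8 and 0.0253 for ZNF655. The largest falls without offsets did not pass with them: ZNF678 stood at -0.32 (adjusted p = 0.149) and ZNF518A at -0.34 (adjusted p = 0.207). ZNF688 stood at 0.33 (adjusted p = 0.0586).

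The families kept small differences with offsets. The median log2 fold change was -0.22 in the 35 KRAB-pattern members, with 5 called lower and 0 higher. It was -0.07 in the 109 members without the pattern, with 6 lower and 4 higher. Of all genes in that fit, 12.6% were called lower and 13.1% higher, so these counts of calls are not read as a trait of either set. The median was -0.18 on chromosome 19 and -0.07 on the other chromosomes, a division that overlaps with the one by KRAB pattern. It was -0.10 in the ZBTB family, of which only ZBTB10 was called. Members of the cluster at chr19:57191500-58538911 included 1 called higher and 3 called lower. These medians are descriptions of lists chosen with the data known, and the differences between them were not tested.

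**Figure D5:**
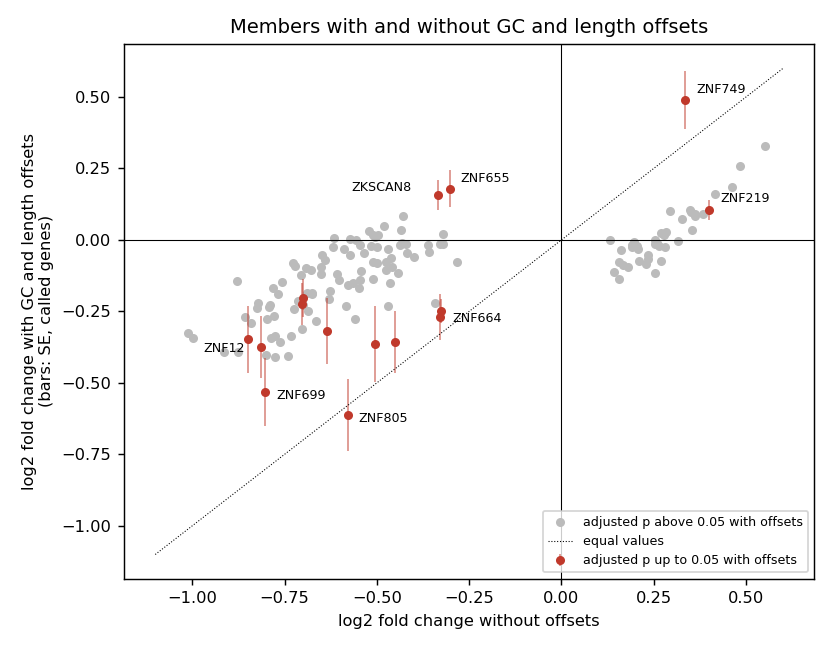
Log2 fold change of each zinc finger member with GC and length offsets (vertical) against that without offsets (horizontal), with the SE for members called with offsets. ZNF805 and ZNF664 lie near the dotted line of equal values, ZNF749 lies above it, and ZKSCAN8 and ZNF655 lie above 0 on the vertical axis and below it on the horizontal axis.

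Of 44 listed proteins of KRAB-mediated repression 26 had a row, 13 higher and 13 lower, with a median log2 fold change of -0.08. This split is near that of all genes tested, 50.9% higher and 48.5% lower. TRIM28, the corepressor that KRAB boxes recruit, is named outside the rule and had 11402, 11876 and 11443 counts in C1s-CM, against 9736, 10132 and 10591 in control CM, a change of 0.20 ± 0.03 (SE, adjusted p = 1.91e-07 in edgeR). With offsets its estimate was -0.07 (adjusted p = 0.0369), a change of direction. MBD3 of the NuRD complex had 2287, 2196 and 2177 counts in C1s-CM and 1587, 1669 and 1708 in control CM, a change of 0.44, and 0.14 with offsets. The heterochromatin proteins CBX3 and CBX5 fell by 0.46 and 0.29, and TASOR of the HUSH silencing complex fell by 0.60. With offsets CBX5 was called higher at 0.18, and CBX3 and TASOR were not called.

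Of 12 listed BTB and corepressor partners 6 had a row, 3 higher and 3 lower, where 50.9% of all genes tested were higher and 48.5% lower. TBL1XR1, a subunit of a corepressor complex, had 697, 576 and 590 counts in C1s-CM and 959, 1242 and 1107 in control CM, a change of -0.81. CUL3 fell by 0.45, whereas RBX1 rose by 0.16. With offsets CUL3 stood at 0.12 and TBL1XR1 at -0.15, and neither passed the test, while RBX1 stayed called at 0.11. Zinc finger factors with other symbols had 32 of 89 genes in the table, 8 higher and 24 lower, with a median of -0.34. With offsets their median was -0.04, with 2 called higher and 4 lower. Of all genes in that fit 13.1% were called higher and 12.6% lower. REST, the repressor of neuronal genes, had 318, 326 and 319 counts in C1s-CM and 507, 500 and 586 in control CM, a change of -0.71, which stayed called with offsets at -0.20 (adjusted p = 0.0381 in edgeR). ZFX fell by 0.65 and SP3 by 0.52, while MAZ, with 66.0% GC, rose by 0.35. With offsets ZFX, SP3 and MAZ were not called, and SP3 stood at 0.02.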

How the data were processed

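Poly(A)-selected RNA of 6 HMC3 libraries was sequenced by the submitters, 3 for C1s-CM and 3 for control CM. Per the submitters' processing notes, FastQC 0.11.9, Trim Galore 0.6.7, HISAT2 2.2.1 and DESeq2 1.40.2 were used with build GRCh38. Which program counted the reads, over which annotation and with what strand setting, was not given in the sources used here. The authors deposited raw counts per gene and, from their own comparison, each gene's log2 fold change with its raw and adjusted p-value, per the file headers. All 5117 rows have an adjusted p-value of at most 0.05 in that deposited comparison.

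The counts were fitted as deposited with edgeR 4.0.16 in R 4.3.3 (filterByExpr, TMM, glmQLFit and glmQLFTest, group only), and Benjamini-Hochberg adjustment covered all 5116 genes tested, with a threshold of 0.05. All 146 members passed the filter, and the sign of the fold change was that of the authors' deposited table in all 146. CPM use TMM-scaled library sizes. Column totals ran from 12730766 to 14961744 counts, and SE of log2 fold changes carry the precision. The script was tested on simulated data. DESeq2 1.42.0 over the same genes was an alternative, as were total-count scaling, other count filters, leaving out each library, a replicate block, and offsets per library from a loess fit (span 0.3) of log2 CPM on transcript GC content and log2 length.

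Transcripts, coding regions and positions came from GENCODE 29, 1 representative transcript per gene, and promoter windows from RefSeq GRCh38.p14. Fingers were counted in translated coding sequences as C, 2 to 4 residues, C, 12 residues, H, 3 to 5 residues, H. The members and lists were chosen with earlier results of these data known. Named genes were the 8 largest rises and 8 largest falls with at least 1 CPM and groups that do not overlap, up to 4 by smallest p per smaller family and per partner list, up to 5 per direction with offsets, 2 per cluster with at least 5 members in the table, and the 3 members with the most CPM; others are said to be chosen after seeing values. A further gene that this rule names is not reported here. No p-value was adjusted over the members alone.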

Additional observations from a re-analysis of the deposited data

How the results depend on the processing

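Without a filter on low counts 41 members were higher and 105 lower, and with DESeq2 40 and 105, with a median log2 fold change of -0.52. Leaving out 1 library gave 38 to 41 higher members, 105 lower members and a median of -0.53 to -0.48. ZNF668 lost its call without C1s-CM replicate 2 (0.23, adjusted p = 0.0799 in edgeR) and ZNF784 without control CM replicate 3 (0.23, adjusted p = 0.0684). With at least 50 counts required in every library, 41 members were higher and 84 lower with a median of -0.46, since fewer members were then tested. Total counts as the only scaling gave 20 higher and 105 lower members and a median of -0.63, and it moved the median of all genes by -0.13. ZNF784, ZNF668, ZNF771, ZNF749, ZNF581, ZNF185 and RBX1 then lost their calls, all still above 0.

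GC and length offsets gave 4 higher and 11 lower members with a median of -0.0819. With the replicate block added they gave 2, 9 and -0.0841 (ZNF219 and ZNF655 lost their calls), with the longest transcript of each gene 3, 11 and -0.0953, and fitted without the members 3, 11 and -0.0895. The last pair of settings was chosen after seeing the data. Signs turned with offsets in ZSCAN12 0.0334, ZKSCAN8 0.16, ZNF655 0.18, ZNF768 -0.0105, ZNF581 -0.0667, ZNF580 -0.12, ZNF185 -0.000683, CBX5 0.18, CUL3 0.12 and SP3 0.0173. With offsets and the replicate block they stood at ZSCAN12 0.0339, ZKSCAN8 0.16, ZNF655 0.18, ZNF768 -0.011, ZNF581 -0.0671, ZNF580 -0.12, ZNF185 -0.000338, CBX5 0.18, CUL3 0.12 and SP3 0.0175. With the longest transcript the values that turned were ZKSCAN8 0.14, ZNF655 0.20, ZNF768 -0.0268, ZNF581 -0.061, ZNF580 -0.0405, ZNF185 -0.0321, TASOR 0.0014, CBX5 0.18, CUL3 0.11 and SP3 0.000895. With offsets fitted without the members they were ZSCAN12 0.022, ZKSCAN8 0.15, ZNF655 0.17, ZNF768 -0.00904, ZNF581 -0.0668, ZNF580 -0.12, ZNF185 -0.00453, CBX5 0.18, CUL3 0.11 and SP3 0.00947. Of 56 named genes, 34 kept their sign but lost their call with offsets, and the cause was not tested.

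Replicate numbers did not pair the libraries: deviations of same-numbered libraries correlated at -0.13, -0.09 and -0.0015 over 5116 genes, and no library correlated best with its own number. The replicate block gave 41 higher and 105 lower members with a median of -0.51 and changed no named call without offsets. Joining clusters at 100 kb or 500 kb in place of 250 kb gave 15 and 20 higher members in clusters, and 42 and 50 lower ones.

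Only genes past the authors' threshold have a row, and whether depth has a part in the shares of families in the table was not tested. Low members rest on few counts, ZNF518A on 28 to 72 per library.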
